A study of Mus musculus with 18 samples.

Results

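The receptor tyrosine kinase Met, its ligand Hgf, the proteases and protease inhibitors that govern the maturation of that ligand, the adaptors bound by the activated receptor and the pseudokinase receptor Ptk7 were followed in livers and tumors of Alb-R26Met mice. The 10 genes were taken by symbol from a list and not by their values: Met and Hgf, the proteases Hgfac, St14 and Hpn, the inhibitors Spint1 and Spint2, the adaptors Gab1 and Grb2, and Ptk7. They are 10 of the 28442 genes in the table. All 10 symbols were found.

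In Alb-R26Met mice, Cre recombinase under the albumin promoter switches on a conditional mouse-human chimeric Met transgene placed in the Rosa26 locus, so that it is expressed in hepatocytes. Both groups carry this genotype, and no liver without the transgene was analysed here. The 6 livers came from 6 mice that had not developed tumors, aged 52 to 71 weeks (median 56.5), and the 12 advanced tumors came from 11 mice aged 49 to 72 weeks (median 65), tumors 11 and 12 from the same animal. The mice were F1 hybrids of a cross between a C57BL/6JRj and a 129S2/SvPasOrlRj parent line, and the labels name no treatment. P-values therefore measure the spread between these mice, with 1 mouse entering as a pair of tumors.

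Hgf is secreted, chiefly by stellate and other mesenchymal cells of the liver, as a single inactive chain that binds Met without switching it on. Serine proteases, among them Hgfac in plasma and the membrane-bound St14 (matriptase) and Hpn (hepsin), cut it into the active form, and the Kunitz-type inhibitors Spint1 and Spint2 restrain these proteases. Once active, Met phosphorylates a docking site in its tail, which recruits Grb2 and Gab1 and thereby the RAS-MAPK and PI3K pathways that drive growth, survival and motility of hepatocytes.

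The deposited values behave as TPM, a relative transcript level that takes gene length into account, rounded to whole numbers, so that a 0 stands for anything that rounds to 0, and the number of reads behind a value is not known. They added up to 835144 to 884597 in the livers and to 845356 to 907513 in the tumors. In tumor 2, Siglece alone took 82.9% of the total. This gene had the highest value in all 18 samples, and whether its values reflect its transcript level was not tested. Its share was 21.5 to 53.4% among the remaining tumors and 17.9 to 29.5% among livers, and a large share lowers the listed value of other genes there. Differences were therefore tested on values divided by a scaling factor per sample, which was 0.190 in tumor 2 and 0.812 to 1.42 in the other 17 samples. Sample names carry a tag, E19 in 2 livers and 7 tumors or E20 in 4 livers and 5 tumors, whose meaning is not given in the sources used here. Hepatocyte markers were abundant in both groups, with a summed scaled level of 45268 to 61854 in the livers and 37485 to 82153 in the tumors.

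Met rose in tumors. The gene is at chr6:17463349-17573980 on GRCm38.p6 (Entrez identifier 17295). Deposited values were 15 at the lowest, 26.5 at the median and 48 at the highest in the livers, and 25, 124 and 207 in the tumors. All tumors but tumor 2, at 25, were above every liver. After scaling, the tumors ran from 71.96 to 152 and the livers from 16.6 to 41.2, with no overlap. Such a separation with tumors above livers was met in 2.17% of the 11452 genes tested. The log2 fold change was 2.21 with a standard error of 0.19 and a 95% interval of 1.82 to 2.60 (limma, adjusted p = 5.4e-08), or 4.63-fold on scaled values plus 1. Reads of the chimeric transgene may be counted under this symbol, and transcripts of the mouse gene and of the transgene cannot be told apart in these values. In bulk tissue, fewer cells of a type and less RNA per cell cannot be told apart either, for Met or for the genes that follow.

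The multifunctional docking site of Met is the stretch through which the adaptors described further on join the receptor. Its coding sequence in the GENCODE M21 annotation of GRCm38 lies in exon 22 of 22, at chr6:17571722-17571754 on the plus strand. Capitals mark the codons 1347 and 1354 of the docking tyrosines:
Met docking site: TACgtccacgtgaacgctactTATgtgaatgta

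Hgf, the ligand (Entrez identifier 15234, chr5:16553495-16619439), fell in tumors from an already low level. Its values were 3 at the lowest, 6 at the median and 9 at the highest in the livers, and 1, 2 and 7 in the tumors. In 8 of 12 tumors the value was below every liver, and tumor 8, at 7, was as high as the livers. After scaling, 9 tumors were below every liver, and tumor 2, listed at 1 and scaled to 5.25, lay within the range of the livers (3.32 to 6.65). A full separation with every tumor below every liver was met in 1.07% of the genes tested, Hgf not among them. Means were 5.83 ± 2.23 in livers (SD, n = 6) and 2.42 ± 1.73 in tumors (SD, n = 12). The log2 fold change was -0.92 with a standard error of 0.25 and a 95% interval of -1.44 to -0.41 (limma, adjusted p = 0.0113), or 0.528-fold. At this level a step of 1 in a rounded value is a large part of the value itself. The call was lost within either tag, with log2 fold changes of -0.81 in E19 (limma, adjusted p = 0.072) and -0.69 in E20 (adjusted p = 0.231).

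Among 10 markers of stellate cells and fibroblasts, cells known to make Hgf, 3 rose and 2 fell in tumors (50%, against 19.1% of all genes). Lrat, which stores retinol as esters in quiescent stellate cells, fell by 1.12 on the log2 scale (limma, adjusted p = 0.0183), from a mean of 5.17 ± 2.04 (SD, n = 6) to 2.17 ± 2.12 (SD, n = 12), and without liver 6 it no longer passed (adjusted p = 0.0561). The intermediate filament gene Des fell by 0.62. The collagen genes Col1a1, Col3a1 and Col1a2 rose, with log2 fold changes of 2.14, 1.54 and 1.39. The summed scaled level of the 10 markers was 40.6 to 65.2 in livers and 39.1 to 174 in tumors, none of the 10 was at 0 in every sample, and their part in the change of Hgf was not tested.

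Among the proteases that activate Hgf, Hgfac and St14 rose in tumors and Hpn did not pass the test. They cut Hgf at 1 bond, and the sequence around it is shown because it is the substrate on which these genes act. It lies in exon 14 of 19 of Hgf, at chr5:16611840-16611875 on the plus strand (GENCODE M21, GRCm38), and capitals mark the codons 495 and 496 on either side of the cleaved bond:
Hgf cleavage site: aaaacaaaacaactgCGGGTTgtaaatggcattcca

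Hgf shares the fold of these proteases but is known to lack their activity, and its sequence is therefore shown beside those of the 3 proteases. Capitals mark the codon at the position of the active-site serine. Each stretch crosses 1 exon junction, so the coordinates span an intron: chr5:16615867-16618849 on the plus strand for Hgf, chr5:35047256-35048180 on the plus strand for Hgfac, chr9:31090004-31090410 on the minus strand for St14 and chr7:31099356-31099514 on the minus strand for Hpn. The marked codon is TCA in Hgfac, TCT in St14 and AGT in Hpn, each a serine codon, and TAT in Hgf, which is not. All are printed 5′ to 3′ on the coding strand:
Hgf: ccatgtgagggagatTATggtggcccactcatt
Hgfac: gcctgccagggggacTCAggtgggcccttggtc
St14: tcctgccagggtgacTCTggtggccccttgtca
Hpn: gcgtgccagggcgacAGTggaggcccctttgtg

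Hgfac, the Hgf activator that hepatocytes secrete into plasma (Entrez identifier 54426, chr5:35041509-35048461), rose in tumors. Its values were 114 at the lowest, 148.5 at the median and 170 at the highest in the livers, and 89, 281 and 424 in the tumors. Of the 12 tumors, 9 were above every liver, tumors 10 and 11 lay within the range of the livers at 138 and 166, and tumor 2 was below it. After scaling, 11 of 12 tumors were above every liver, and tumor 2 was the highest of all, at 467 against at most 146 in a liver. The log2 fold change was 0.94 with a standard error of 0.22 and a 95% interval of 0.47 to 1.40 (limma, adjusted p = 0.0051), or 1.91-fold. Without scaling it was 0.75 and did not pass (adjusted p = 0.249), and with tumor 2 also left out it passed again. Within tags it passed in E20 (log2 fold change 1.26, adjusted p = 0.0245) and not in E19 (0.73, adjusted p = 0.172).

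St14, which encodes the epithelial surface protease matriptase (Entrez identifier 19143, chr9:31088590-31131811), was listed at 0 in all 6 livers. In tumors the lowest value was 0, the median 2.5 and the highest 6. It was above 0 in 10 tumors and at 0 in tumors 2 and 3. With its scaling factor of 0.190, a listed 0 in tumor 2 covers a wider range of scaled levels than elsewhere. Tumor 2 had 8718 genes above 0, against 11508 to 13819 in the other tumors. On the log2(scaled value + 1) scale the groups differed by 1.49 with a standard error of 0.37 and a 95% interval of 0.71 to 2.26 (limma, adjusted p = 0.0072), a size that depends on the added 1 because the livers are at 0. St14 met the filter on low values through tumors alone, so only a rise could be found. Within E19, 6 of 7 tumors were above 0 (exact permutation test with 36 arrangements, two-sided, p = 0.111), and within E20, 4 of 5 (exact permutation test with 126 arrangements, p = 0.0476).

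St14 is expressed by biliary and other surface epithelia, and markers of bile duct and progenitor cells were read beside it. Of 10 such markers 4 could be tested and 3 rose (75% of those tested, against 9.52% of all genes). These were Spp1, the secreted phosphoprotein osteopontin, by 4.44 on the log2 scale (limma, adjusted p = 3.71e-07), Prom1 with 2.63 and Cldn7. Cldn7 was listed at 0 in all livers and at 0 to 7 in tumors. The defining bile duct keratin genes Krt19 and Krt7 were at 2 or less in every sample, as was Epcam, and Cldn4 was at 0 in all 18. The summed scaled level of the 10 markers was 9.41 to 22.2 in livers and 67.7 to 909 in tumors (394 at the highest without tumor 11). Most of that sum was Spp1, with a mean deposited value of 238 in tumors against 9.08 for Sox9, 7.58 for Prom1 and 2.33 for Cldn7, so it describes 1 gene more than the list, and its part in the values of St14 was not tested.

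Hpn, the hepatocyte surface protease hepsin (Entrez identifier 15451, chr7:31098725-31115326), had values of 187 at the lowest, 208.5 at the median and 225 at the highest in the livers, and 31, 186 and 203 in the tumors. Of the tumors, 6 were below every liver and 6 lay within the range of the livers. After scaling, 5 were below every liver, and tumor 2, at 163, lay within the range of the livers (150 to 243). The log2 fold change was -0.29 with a standard error of 0.14 and a 95% interval of -0.58 to 0.01 (limma, adjusted p = 0.18), so a fall of up to 0.58 is within the interval.

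Spint1, one of the Kunitz-type inhibitors (Entrez identifier 20732, chr2:119237360-119249535), was listed at 0 in all 18 samples, and no comparison could be made. Spint2, the other (Entrez identifier 20733, chr7:29256330-29282059), had values of 59, 72.5 and 91 in the livers and of 10, 72.5 and 105 in the tumors at the lowest, the median and the highest. The groups shared their median and overlapped. Its log2 fold change was -0.02 with a standard error of 0.18 and a 95% interval of -0.39 to 0.35 (limma, adjusted p = 0.951), and its sign turned under several of the alternatives.

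The adaptors did not pass the test. Gab1, a scaffold that binds Met directly and through Grb2 (Entrez identifier 14388, chr8:80764431-80880519), had values of 3, 6.5 and 10 in livers and of 1, 3 and 10 in tumors at the lowest, the median and the highest. The ranges overlapped, and 7 tumors, all of those with the tag E19, were listed at 3. Its log2 fold change was -0.46 with a standard error of 0.22 and an unadjusted 95% interval of -0.91 to -0.01 (limma, adjusted p = 0.147), and it passed only when samples were weighted by quality (-0.67, adjusted p = 0.00772). Grb2, which links the docking site to Sos and hence to Ras (Entrez identifier 14784, chr11:115644045-115708597), had values of 15, 19.5 and 28 in livers and of 6, 23.5 and 44 in tumors. The spread of the tumors enclosed that of the livers. The log2 fold change was 0.39 with a standard error of 0.19 and a 95% interval of -0.00 to 0.79 (limma, adjusted p = 0.163).

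Ptk7, a receptor without kinase activity that takes part in planar cell polarity and Wnt signaling (Entrez identifier 71461, chr17:46564451-46630049), was listed at 0 in all 6 livers. In tumors its values were 0 at the lowest, 1 at the median and 3 at the highest, above 0 in 9 of 12. Tumor 2 was among those at 0, with the same limit as for St14. Ptk7 was too low for the fit across genes. The mean of log2(scaled value + 1) was 0.79 higher in tumors (exact permutation test, two-sided, p = 0.00673) and 0.88 higher without scaling (exact permutation p = 0.00641). Within E20, 4 of 5 tumors were above 0 (exact permutation p = 0.0476) and within E19, 5 of 7 (exact permutation p = 0.222), and a value of 1 is the smallest the rounded table can hold.

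**Figure D1:**
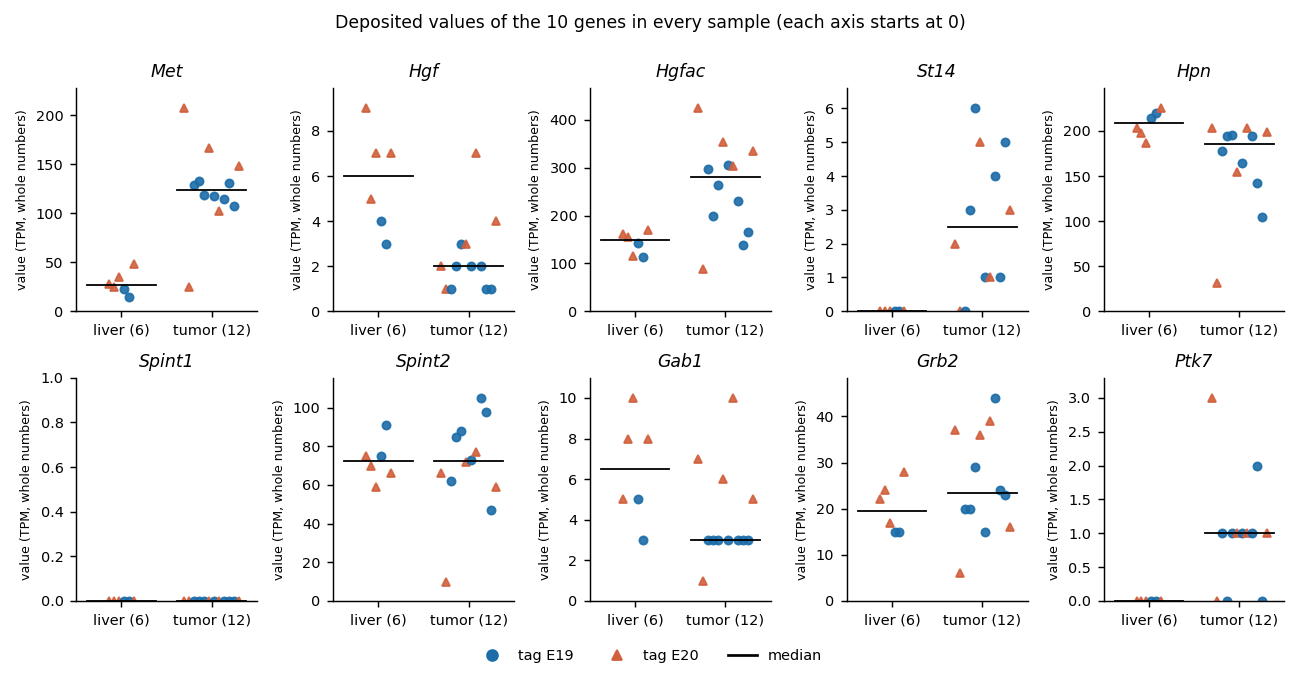
Deposited values (TPM in whole numbers, each axis from 0) of the 10 genes in 6 livers and 12 tumors, with circles for tag E19, triangles for tag E20 and a line at the median of each group. Met has medians of 26.5 and 124, Hgf of 6 and 2, and St14 and Ptk7 are at 0 in every liver.

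Of the 10 genes, 8 were high enough to be tested and 4 passed: Met, Hgfac and St14 were higher and Hgf was lower in tumors. St14 entered the test through its tumor values alone, so the direction of its call was fixed beforehand. Over all genes tested, 19.1% passed, 9.52% higher and 9.61% lower in tumors. Leaving out any 1 of the 18 samples kept all 4 calls, tumor 2 included. With so few genes, this count is a description and not a property of the group.

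**Figure D2:**
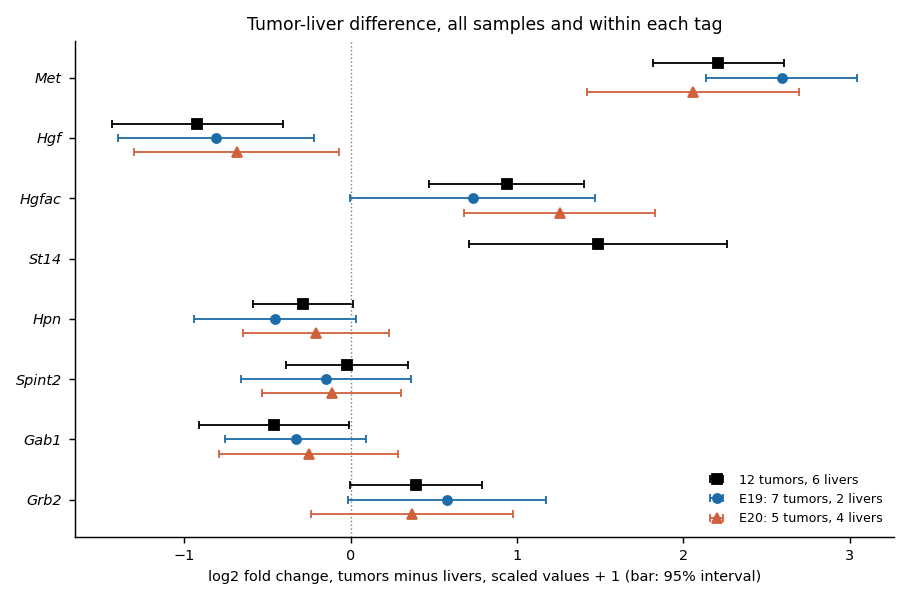
Log2 fold change of tumors minus livers with its 95% interval for the genes that could be tested, for all samples (squares), E19 alone (circles) and E20 alone (triangles). The intervals of Met lie above 0 throughout, those of Hgf below 0 and those of Spint2 across 0, and St14 was too low to be fitted within a tag.

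TPM allow genes to be ordered by level. In livers the medians fell from Hpn (208.5) and Hgfac (148.5) to Spint2 (72.5), Met (26.5), Grb2 (19.5), Gab1 (6.5) and Hgf (6), with St14, Ptk7 and Spint1 at 0. Among those above 0, each gene exceeded the next in all 6 livers except that Met exceeded Grb2 in 5 and Gab1 exceeded Hgf in 4, so those neighbors were not clearly apart. In tumors the order was Hgfac (281), Hpn (186), Met (124), Spint2 (72.5), Grb2 (23.5), Gab1 (3), St14 (2.5), Hgf (2) and Ptk7 (1). Hgfac exceeded Hpn in 11 of 12 tumors and Hpn exceeded Met in 9, while St14 exceeded Hgf in 5 and was below it in 5. By these medians the ligand ranked seventh among the members in livers and eighth in tumors. Its place beside Gab1 in livers and beside St14 in tumors was not settled, so this is not read as a change. By the medians its receptor moved from the fourth place to the third.

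Ratios of 2 genes within a sample do not depend on the scaling. The ratio of Met to Hgf, receptor to ligand, was 3.11 at the lowest, 5 at the median and 6.86 at the highest in livers, and 14.6, 58.3 and 131 in tumors. Hgf was at 1 to 7 in tumors, so the size of these ratios is coarse, and that of 131 has an Hgf rounded to 1. The ratio of Hgfac to Hpn, a plasma to a membrane-bound activator, was 0.518, 0.71 and 0.793 in livers and 0.972, 1.63 and 2.87 in tumors. In both ratios all 12 tumors, tumor 2 included, were above all 6 livers. Met to Spint2 (livers 0.165 to 0.727, tumors 1.09 to 3.14) and Met to Grb2 (livers 1 to 2.06, tumors 2.61 to 9.25) separated the groups as well. Scaled Met alone already separated them, so the ratios with Met restate its rise in part. How many other pairs of genes separate the groups in this way was not determined. Grb2 to Gab1, 1.7 to 5 in livers and 3.2 to 14.7 in tumors, placed 9 of 12 tumors above all livers. Gab1 was also low, with the same limit from rounding. The pairs were chosen with the levels known, and these separations are given without a test.

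**Figure D3:**
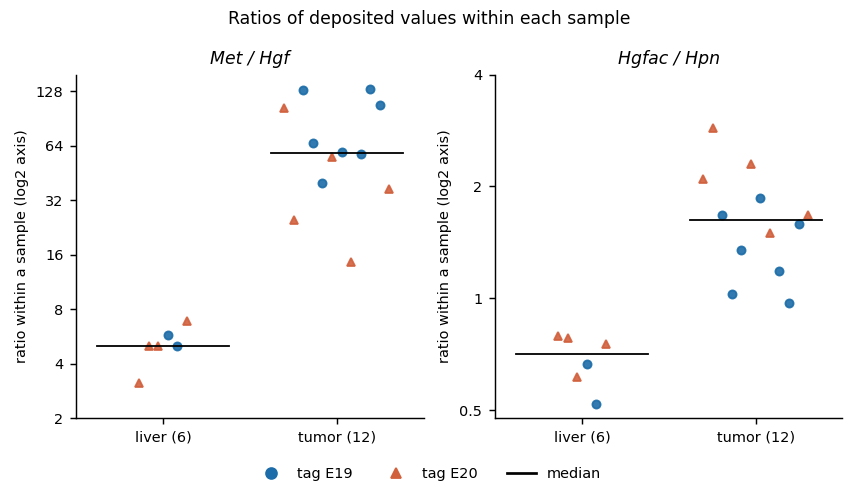
Ratios of deposited values within each sample, Met to Hgf and Hgfac to Hpn, on log2 axes, with circles for tag E19, triangles for tag E20 and a line at the median. In both panels the 12 tumors lie above the 6 livers, from 14.6 upward against at most 6.86 for Met to Hgf.

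Some members differed between tags at the same time as between groups. With the group in the fit, Hgf was higher in E20 by a log2 difference of 0.70 (limma, adjusted p = 0.0120) and Gab1 by 0.66 (adjusted p = 0.00407), while Spint2 was lower in E20 by a log2 difference of -0.50 (adjusted p = 0.00878). Means of Hgf were 3.5 in E19 livers, 7.0 in E20 livers, 1.71 in E19 tumors and 3.4 in E20 tumors. Those of Gab1 were 4 and 7.75 in E19 and E20 livers, and 3 and 5.8 in E19 and E20 tumors. The 3 calls stand against 20.5% of all genes tested, and the comparison was chosen after the values were seen. Of the tumors 7 of 12 carry E19, and of the livers 2 of 6. Hgf still passed with tag and age as covariates. Met rose within each tag, with log2 fold changes of 2.59 in E19 (limma, adjusted p = 5.6e-05) and 2.06 in E20 (adjusted p = 0.00367). Of the 7 members that could be fitted within a tag, Met alone passed in E19, where 13.1% of all genes did, and Met and Hgfac passed in E20, where 3.93% did.

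Whether the difference between tumors and livers was itself different between tags was tested with an interaction term, and no member passed (limma, 0 of 8; 0% of all genes). Without adjustment no member had a p under 0.05 either, the lowest being that of Met at 0.204, and 326 of all genes had (2.85%). Age was tested with group and tag in the fit, and it too gave 0 of 8 members and 0% of all genes (limma, 176 genes or 1.54% without adjustment). The lowest unadjusted p of a member for age was that of Spint2, at 0.0951.

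The study asked how far tumors differ from one another, so the spread of each member was compared between groups. The mean absolute deviation from the group median on the log2 scale was 0.219 among tumors and 0.329 among livers for Met (exact permutation p = 0.423). It was 0.418 against 0.141 for Hgfac (exact permutation p = 0.0305) and 0.808 against 0 for St14 (exact permutation p = 0.00102). No member passed after adjustment over all genes (0 of 8; 0% of genes), with adjusted p of 0.666 for St14, and 4.37% of all genes had an unadjusted p under 0.05 in this permutation test. A level of 0 in every liver leaves St14 no spread there.

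Across the 12 tumors, no member was related to the level of Met after scaling. The limma fit on Met gave 0 of 7 members and 0% of the other genes (176 genes, 1.54%, at an unadjusted p under 0.05, and no member, the lowest being Hgfac at 0.109). Among 8 correlations, that of Hgfac was the highest, with Pearson's r = 0.474 (p = 0.122 by permutation, adjusted 0.974) and Spearman's rho = 0.524 (p = 0.0839 by permutation, adjusted 0.671). Its r was 0.584 without tumors 5 and 8, the 2 farthest from the median of Met, and 0.451 in the 7 E19 tumors. Gab1, whose r was 0.02 over all 12, reached 0.764 without those tumors and 0.876 among the E19 tumors, where every listed value of Gab1 is 3 and only the scaling factors set its order.

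Without scaling, 6 of 8 members were related to Met (limma). The r was 0.893 for Hpn, 0.840 for Spint2, 0.786 for Hgfac, 0.723 for Grb2, 0.663 for Gab1 and 0.603 for Ptk7. In that fit Ptk7 had an unadjusted p of 0.0258 and an adjusted p of 0.0383 (limma). So small a step between them arises only where most of all genes pass, and the count describes no trait of the members. The exact share of all genes is not given here. Without scaling and with tumor 2 left out, no member passed. The r was then 0.544 for Ptk7, 0.532 for Hgfac, 0.320 for Gab1, 0.245 for Hpn, 0.109 for Grb2 and -0.13 for Spint2. Ptk7 was listed at 3 or less in every tumor. Tumor 2 had the lowest deposited value among tumors of Met, Hgfac, Hpn, Spint2, Gab1 and Grb2, and it is the tumor in which Siglece takes most of the total.

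**Figure D4:**
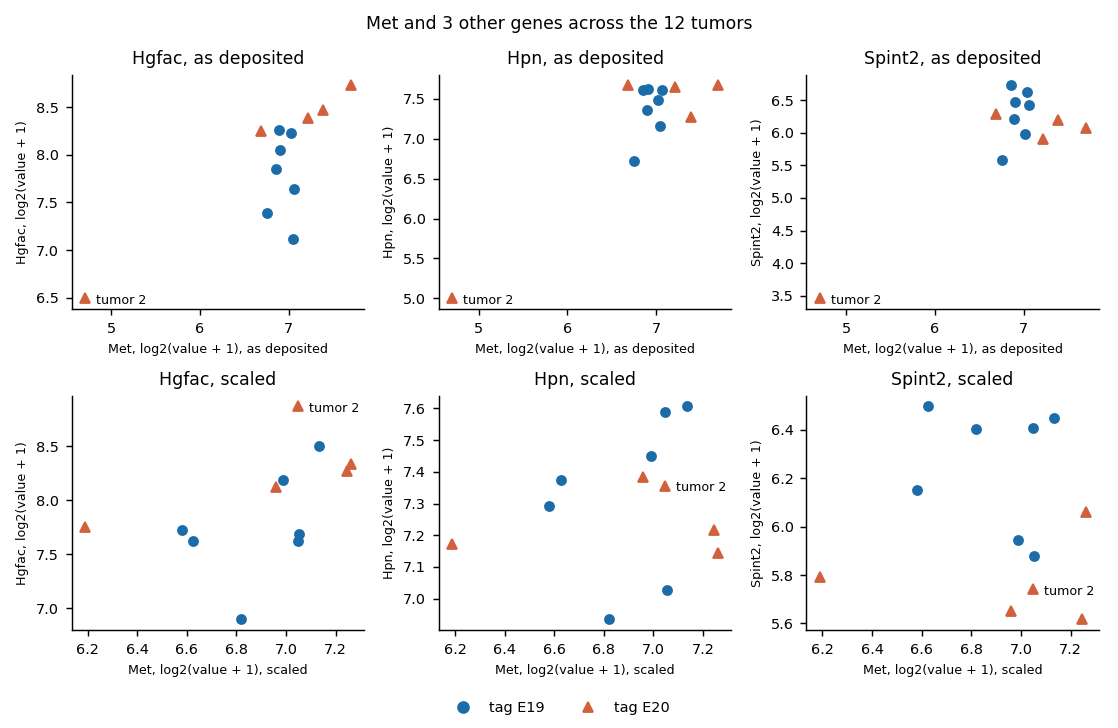
Log2(value + 1) of Met on the horizontal axis against that of Hgfac, Hpn and Spint2 in the 12 tumors, with deposited values above and scaled values below, circles for tag E19 and triangles for tag E20. With deposited values tumor 2 stands alone at the lower left (r of 0.786, 0.893 and 0.840), and after scaling it lies among the others for Met (r of 0.474, 0.165 and -0.09).

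The genes whose scaled pattern over the 12 tumors was most like that of Met, by Pearson's r among 5673 genes, were Gpc1 (r = 0.840), Entpd2 (0.825), Pzp (0.766), Cyp39a1 (0.740) and Mia3 (0.737). They are the highest of many, and none had a slope on Met that passed in limma over all genes. Gpc1, a cell surface heparan sulfate proteoglycan, rose from 3.5 ± 2.26 in livers (SD, n = 6) to 21.7 ± 14.1 in tumors (SD, n = 12), or 2.28 on the log2 scale (limma, adjusted p = 0.000499). Entpd2, an ecto-nucleotidase, rose by 1.96 on the log2 scale (limma, adjusted p = 2.91e-07). Pzp, a broad protease inhibitor of plasma, and Cyp39a1, an oxysterol hydroxylase, each rose with a log2 fold change of 0.96. Mia3, a protein of collagen export from the endoplasmic reticulum, had a log2 fold change of -0.18 and did not pass (adjusted p = 0.581).

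Around the members, 110 further genes in 6 lists cover the rest of the pathway. Of 102 tested, 19 rose and 8 fell (26.5%, against 19.1% of all genes), with a median log2 fold change of 0.09 against -0.08 over all genes. Without tumor 2 the number was 38 (37.3%, against 26.4% of all genes). In E19 alone it was 14 (14.7% against 13.1%), and in E20 alone 2 (2.22% against 3.93%), so the order of the shares turned there. Without scaling it was 12 (11.7% against 10.1%), and the median log2 fold change of all genes then moved by -0.11.

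Among 12 other proteases, receptors and ligands of the Hgf and plasminogen systems 4 rose and 1 fell, with a median of 0.32. Their share was 41.7%, against 19.1% of all genes, and no set test was run for this or the other lists. Mst1r, the Ron receptor and closest relative of Met, was listed at 0 in all livers and at 1 to 3 in every tumor (limma, adjusted p = 8.8e-06), while the value of its ligand Mst1, 85.3 in livers and 83.4 in tumors on average, did not pass (adjusted p = 0.691). Prss8 (prostasin), a membrane protease that acts together with matriptase, rose from a mean of 3.17 ± 2.99 (SD, n = 6) to 7.83 ± 4.75 (SD, n = 12), or 1.23 on the log2 scale (limma, adjusted p = 0.00459). Plaur, the urokinase receptor, had a log2 fold change of 1.16 (adjusted p = 0.0213), and the call was lost when liver 2, 3, 4 or 5 was left out, with limma adjusted p of 0.0517 to 0.0565. The plasma proteases F11 and Klkb1, which can also cleave Hgf, moved in opposite directions, with log2 fold changes of 0.89 and -0.85.

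Of 8 other protease inhibitors, 6 were tested, 1 rose and 1 fell (33.3%, against 19.1% of all genes), and the median was 0.20. Serpine2 (protease nexin-1) fell by 1.36 on the log2 scale (limma, adjusted p = 0.00193), from 2 to 11 in livers to 0 to 3 in tumors.

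Of 17 receptor partners of Met, 15 were tested, 4 rose and 2 fell (40%, against 19.1% of all genes), and the median was 0.00. Itga6, the alpha chain of a laminin-binding integrin, was 0 or 1 in livers and 1 to 26 in tumors, a log2 difference of 2.91 (limma, adjusted p = 4.65e-07). Itgb1, Plxnb1 and Icam1 also rose, by less than 2-fold. Lrp1, an endocytic receptor, fell by 1.01 on the log2 scale (adjusted p = 0.00872), and Egfr fell by 0.66. The call of Lrp1 was lost without scaling (adjusted p = 0.0554), in E19 alone (0.0838), in E20 alone (0.168) and in the livers with tumors 1 to 6 (0.0686).

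Of the 33 adaptors and effectors downstream of Met, 4 were higher and 1 lower (15.2%, against 19.1% of all genes), with a median of 0.02. Nck2, an adaptor that links receptors to the actin cytoskeleton, rose from a mean of 1.5 ± 0.548 (SD, n = 6) to 4.17 ± 1.53 (SD, n = 12), or 1.11 on the log2 scale (limma, adjusted p = 4.19e-05). Grb10, an adaptor of insulin and growth factor receptors, was 1 in every liver and 1 to 17 in tumors, a log2 fold change of 1.15 (adjusted p = 0.00647). Shc1 rose and Pik3r1, the regulatory subunit of PI3K, fell, each by less than 2-fold. The other 28, the phosphatase Ptpn11 among them (log2 fold change 0.24, adjusted p = 0.193), did not pass.

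Of 21 negative regulators and traffic proteins of Met, 3 rose and 2 fell (23.8%, against 19.1% of all genes), with a median of 0.13. Dcn, which encodes decorin, a matrix proteoglycan that binds Met and Egfr, fell from 47.7 ± 5.79 in livers (SD, n = 6) to 20.4 ± 13.5 in tumors (SD, n = 12), a log2 difference of -1.31 (limma, adjusted p = 0.000993). Errfi1, a feedback inhibitor of Egfr, fell by 0.78. Adam10, a protease that sheds the ectodomain of Met, rose with a log2 fold change of 0.99 (adjusted p = 5.6e-05), and Cd2ap and Ptprk rose by less than that. The ubiquitin ligase Cbl, which sends Met to degradation, had a log2 fold change of 0.09 (adjusted p = 0.823).

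Of 19 genes around Ptk7, the Ror receptors and planar polarity, 15 were tested, 3 rose and 1 fell, with a median of 0.07. Their share was 26.7%, against 19.1% of all genes. Mmp14, a membrane metalloprotease that cleaves Ptk7, rose from 25.5 ± 11.5 in livers (SD, n = 6) to 61.5 ± 25.1 in tumors (SD, n = 12), or 1.35 on the log2 scale (limma, adjusted p = 0.000176). The polarity cadherin gene Celsr2 and the Wnt receptor gene Fzd3 were listed at 0 in all livers and reached 27 and 7 in tumors (adjusted p = 0.0234 and 0.0126). Ryk, another pseudokinase receptor for Wnt ligands, fell by 0.62 (adjusted p = 0.0125), and Ror1 had a log2 fold change of 0.07 (adjusted p = 0.87).

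**Figure D5:**
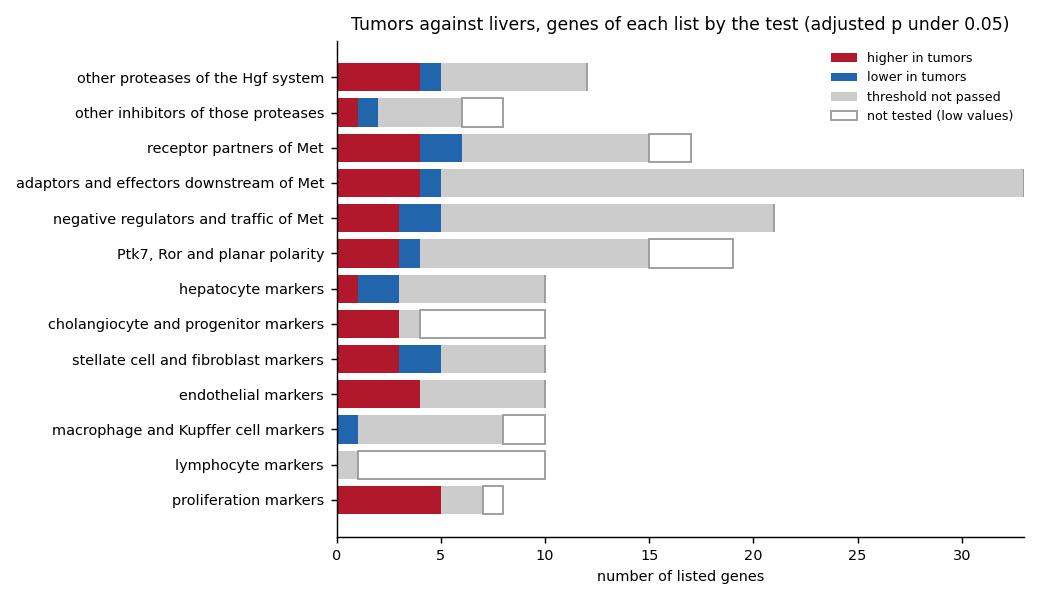
Number of genes in each pathway list and each cell type marker list that were higher in tumors, lower in tumors, tested without passing, or not tested because of low values. Of the 12 genes in the list of other proteases, which also holds the receptors Mst1r and Plaur and the ligand Mst1, 4 rose and 1 fell. Of 33 adaptors and effectors 4 rose and 1 fell. Over all genes tested, 19.1% passed.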

How the data were processed

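Bulk RNA-seq of 6 livers and 12 tumors of Alb-R26Met mice was used. From poly-A RNA the authors made paired-end reads, aligned them to GRCm38 (mm10), ran Salmon for quantification and expressed genes as TPM, and the submitters' processing notes also name edgeR without its role. The deposited table is described as raw counts, but its values are a score in whole numbers that behaves as rounded TPM, so no count model was fitted. Of its 28442 genes, 12874 are at 0 in every sample, and 8 lines with an extra separator were read accordingly. Precision cannot be given from read depth, which TPM do not keep. Groups come from the sample titles, and ages and tags from the labels and the study's sample list. The mouse numbers of tumors 3 and 10 differed between the labels and that list, so these tumors were matched by tumor number and tag.

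Values were divided by trimmed mean of M factors (unweighted, trimming 30% of M and 5% of A). Genes that reached 1 after scaling in 6 or more samples were fitted as log2(scaled value + 1) by limma (version 3.58.1, R 4.3.3), its prior variance following a trend and no covariate added, and Benjamini-Hochberg adjusted p-values under 0.05 passed. All p-values are two-sided. Folds are on that scale and understate changes of low genes. Genes listed at 0 in every liver met the filter through tumors alone, and for them only a rise could be found. The fit was tested on simulated data. Exact permutation tests over all splits served for spreads and for genes too low to fit, and 100000 permutations for correlations (Python 3.11.15, numpy 2.4.6, scipy 1.17.1, pandas 2.3.3). Figures were drawn with matplotlib 3.10.9, and coding sequences were translated with Biopython 1.88 to find the sites shown.

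The members and lists were chosen with earlier results of these data known. Named are the 10 members, of each list up to 4 genes with the largest log2 fold change of at least 1 that passed, and the 5 genes most like Met (highest r over the 12 tumors, mean log2 value of at least 3, Gm-numbered and Rik symbols left out). Further genes named beside them were chosen after their values were seen. Some listed genes are counted but not reported here by name. Alternatives were no scaling, median-of-ratios scaling, no filter or one of 5, a pseudocount of 0.5, no variance trend with a robust prior, tag and age as covariates, a replicate block, tumors 11 and 12 averaged, each tag alone, sample weights and each sample left out. Added after seeing the data were no scaling without tumor 2, the samples of the block without it and the test of tags. No comparison columns of the authors were used. Gene positions were read from RefSeq (GRCm38.p6) by Entrez identifier and coding sequences from GENCODE M21.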

Additional observations from a re-analysis of the deposited data

Results flagged for a closer look

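Of 44 named genes examined among the 6 livers, 6 had 1 liver far from the others, and none was a member. For continuous values chance gives about 1 group in 20, or 2.2 of 44. That figure does not hold for whole numbers near 0. Genes with the same value in all 6 livers, the members St14, Spint1 and Ptk7 among them, could not be flagged. The gap to the nearest liver was set against the range of all 6. For Prss8 the ratio was 0.75, with liver 1 at 9 and the next at 3. For Clec4f, a Kupffer cell lectin, it was 0.714, with liver 5 at 34 and the next at 19. It was 1.0 for Itga6 (liver 5 at 0, the others at 1), Prom1 (liver 1 at 3, the others at 0), Cd34 (liver 1 at 0, the others at 1) and Top2a (liver 3 at 1, the others at 0), and a difference of 1 is the smallest step of the rounded table.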

How the results depend on the processing

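Met kept its rise in every alternative, with log2 fold changes of 2.03 to 2.59 (2.10 to 2.35 with 1 sample left out). The 4 calls among the members were 4 with any 1 sample left out, 2 with a filter of 5 and with the replicate block, 1 in E19 alone and 2 in E20 alone. A filter of 5 no longer tests Hgf and St14. The 27 listed pathway genes that passed were 12 without scaling, 13 with the replicate block and 13 in the same samples without it, 14 in E19 alone, 2 in E20 alone and 47 with sample weights, and 23 to 38 with 1 sample left out. Members related to Met were 6 of 8 without scaling, in a fit where most of all genes passed. They were 0 in the other 25 alternatives run for this relation, which did not include covariates, the block, E20 alone, weights or the robust prior. The sign of Spint2, which never passed, turned with median-of-ratios scaling (0.0271), tumors 11 and 12 averaged (0.0101), sample weights (0.0565) and no scaling without tumor 2 (0.035), and ran from -0.0713 to 0.0986 with 1 sample left out. Mia3 turned in E19 alone (0.0193). Ptk7 could be fitted and passed without scaling, with or without tumor 2, and without a filter. Of all genes, 2190 passed, against 1341 without scaling, 1382 with the replicate block, 1329 in E19 alone, 405 in E20 alone and 4512 with sample weights. The causes of these shifts were not tested, beyond the smaller number of samples in the block and within a tag. The deviations of livers and tumors with the same number had correlations of 0.084, 0.339, -0.11, 0.224, 0.425 and 0.0823, against a mean of -0.03 for other numbers, and 5 of 12 samples were closest to their own number. By the mouse numbers no animal gave both a liver and a tumor, so the samples were not treated as paired. Liver 3 carries E20 and tumor 3 carries E19, while at the other numbers liver and tumor share a tag. The part of the tag in these correlations was not tested. No label states a link other than the animal, and such a link is not excluded. With the replicate block Hgf did not pass (-0.89, adjusted p = 0.0585), and in the same samples without it Hgf passed (adjusted p = 0.0407). Met and Hgfac passed with the block, and St14 could not be fitted there. Among other named genes, Pzp, Cyp39a1, Lrp1 and Mmp14 lost their call without scaling, Col1a2, Cd34 and Cdk1 with the block and also in the same samples without it, and Clec4f with a pseudocount of 0.5 and with covariates. In each tag alone 13 named genes lost theirs, members included. Depth is unknown, and values under about 5 are limited by rounding.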

Other observations

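Of 8 markers of dividing cells 7 were tested, 5 were higher in tumors (against 9.52% of all genes) and none was lower. Mcm5 and Pcna did not pass (limma, adjusted p = 0.0609 and 0.286), and Ccnb1 was too low to be tested. Mki67, listed at 0 in all livers, was 1 to 4 in tumors (limma, adjusted p = 2.94e-06), Top2a was 0 to 1 in livers and 1 to 13 in tumors (adjusted p = 1.74e-06), and Ccna2, listed at 0 in all livers, was 1 to 13 in tumors (adjusted p = 0.000874). Cdk1 had a log2 fold change of 1.20 (adjusted p = 0.0255), which was lost without liver 1 or liver 2 (adjusted p of 0.0577 and 0.074). The summed scaled level of the 8 markers was 16.9 to 34.0 in livers and 26.3 to 127 in tumors, with overlap.

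Of 10 endothelial markers 4 rose (against 9.52% of all genes), among them Pecam1 (log2 fold change 1.14), the sialomucin Emcn (1.54) and Cd34 (1.24), and none fell. The call of Cd34 was lost in the livers with tumors 1 to 6 (adjusted p = 0.099, and 0.108 with the replicate block). Summed levels were 24.4 to 76.3 in livers and 30.8 to 221 in tumors, and 81.7 at the highest without tumor 2. Of 10 macrophage and Kupffer cell markers 8 were tested and 1 fell (12.5%, against 19.1% of all genes in either direction). It was Clec4f, at a log2 difference of -1.48 (limma, adjusted p = 0.0355). This call was lost when any of 8 samples (livers 2 to 6, tumors 1, 9 and 11) was left out, with limma adjusted p of 0.0525 to 0.0975. Of 10 lymphocyte markers 1 could be tested, and it did not pass. Of 10 hepatocyte markers Apoa1 rose, Apoa2 fell and Tat, the tyrosine aminotransferase, fell by 1.63 on the log2 scale (limma, adjusted p = 0.00445), while Alb had a log2 fold change of 0.56 (adjusted p = 0.1). The share that passed was 30%, against 19.1% of all genes.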
